A study of Mus musculus with 27 samples.

Results

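The genes described here are 42 cell cycle genes of the mouse, out of 55367 gene rows in the count table of the whole series. They were chosen by name, and all 42 were found. By function they are 13 genes of DNA replication, 12 regulators of the passage from G1 into S phase, and 17 genes of G2 and mitosis. RNA was measured in bulk in 27 libraries, 3 in each of 9 groups, and each library came from a pool of 15 to 20 wild-type embryos grown in culture to the morula stage and harvested at E2.75. In the inhibitor family, embryos were cultured from day 2.5 with Vehicle, with SAHA at 500 nM, with TSA at 50 nM, or with A485 at 10 uM. SAHA and TSA block histone deacetylases, and A485 blocks the catalytic activity of the histone acetyltransferases p300 and CBP. In the siRNA family, zygotes received siControl, siP300, siKat6a, siKat6b or siComb into the cytoplasm at day 0.5, where p300 (gene Ep300), Kat6a and Kat6b are histone acetyltransferases. What siComb contained is not stated. The doses of the inhibitors differed, and each group was compared with the control of its own family. Nothing in the labels says that the 3 pools of a group were collected or prepared apart, so p-values measure the spread between these pools, which may be technical. As models, the groups hold whole embryos, in which inner and outer blastomeres are pooled.

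The cell cycle runs through DNA replication (S phase) and chromosome segregation (M phase), separated by the gaps G1 and G2. Cyclin D with Cdk4 or Cdk6 and cyclin E with Cdk2 release E2F factors from the RB family, and E2F then turns on replication genes. Cyclin A and cyclin B with Cdk1 drive entry into mitosis, and the anaphase-promoting complex ends it. Early blastomeres of the mouse divide without growth and cleave from a few large cells to many small ones before the blastocyst forms. The DREAM complex holds many G2 and mitotic genes down in resting cells through a promoter element named CHR.

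Libraries held 7557591 to 11988857 counts. Levels below are CPM (counts relative to the library total, scaled by TMM over all 27 libraries). Log2 fold changes come from edgeR's quasi-likelihood test, with 1 fit for each family and Benjamini-Hochberg adjustment over 18297 genes for the inhibitors and 19180 for the siRNAs. A gene rose or fell where its adjusted p was under 0.05. For the labelled tissue 10 morula markers were summed, with no reference tissue or threshold, so the sum does not test the label. The sum of the 10 was 10631, 10885 and 11746 CPM in Vehicle and 11801, 11167 and 15925 CPM in siControl. Sox2, among the 10, was at 0 counts in all 27 libraries, and this 0 is not read as a level, since Sox2 lies wholly inside Sox2ot, a gene model on the same strand (with 0% of its exon bases shared). The siRNA targets were checked first. Ep300 was at 22.8 to 28.8 CPM in siControl and 11.2 to 27.7 CPM in siP300 (log2 fold change -0.43, adjusted p = 0.259, edgeR). Kat6a was at 15.7 to 18.2 CPM in siControl and 10.3 to 13.2 CPM in siKat6a (-0.46, adjusted p = 1), and Kat6b at 101 to 114 CPM and, in siKat6b, 66.9 to 78.7 CPM (-0.56, adjusted p = 0.496). None of the 3 passed in the group named for it. In siComb, Kat6a (-0.64, adjusted p = 0.022) and Kat6b (-1.03, adjusted p = 0.00815) fell, while Ep300 was at -0.15 (adjusted p = 0.722). The siRNA groups are therefore described under their labels. In 4 siRNA libraries (siP300 replicate 2, siKat6b replicates 1 and 3, and siComb replicate 2) the endogenous retrovirus MERVL stood at 899 to 990 CPM, against 20.4 to 158 CPM in the other 11, and counts are given below with and without these 4.

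E2F and CHR elements are known for marking replication promoters and mitotic promoters, so the promoters of the members were searched for them. RefSeq promoters (GRCm38.p6) were matched for 34 of the 42 members. The remaining 8 had no entry among the promoters read (Mcm4, Gmnn, Ccnd1, Ccnd2, Ccne2, Ccna2, Cdc25c and Aurkb). Cdc25c lies in a part of the genome left out of the search, so whether RefSeq holds an entry for it was not checked. All promoters, below, means all those read, without that part. In the 250 bases before the start, on both strands, the E2F words searched were TTCCCGC along with TTGGCGC together with TTCGCGC as well as TTGCCGC. The CHR word was TTTGAA, and CCAAT, the word bound by NF-Y, was searched too. TTGGCGC and the reverse of TTCGCGC can overlap, as in Mcm6. An E2F word was found in 7 of 12 promoters of replication genes (58.3%), in 3 of 11 of G1/S regulators (27.3%) and in 3 of 14 of G2/M genes (21.4%), against 7.89% of all 32851 promoters and 11.9% of the 17458 of genes with at least 10 counts in 3 libraries. The CHR word was found in 6 of 14 G2/M promoters (42.9%), in 1 of 12 replication promoters (8.33%) and in 0 of 11 of the G1/S regulators, against 16.0% of all promoters and 12% of those of genes with counts. CCAAT stood in 12 of 14 G2/M promoters (85.7%) and in 9 of 12 replication promoters (75.0%), against 33.8% and 35.2%. These are matches of letters, not sites shown to be bound. The 150 bases before the start are printed for 3 replication genes that fell together in the TSA group and for 3 of the 6 G2/M genes with a CHR word, picked after their values were seen as 1 of each outcome in TSA, with E2F and CHR words in capitals, in the direction of the gene. TTCAAA is the CHR word read on the other strand.
Rrm1, chr7:102441545-102441694, plus strand: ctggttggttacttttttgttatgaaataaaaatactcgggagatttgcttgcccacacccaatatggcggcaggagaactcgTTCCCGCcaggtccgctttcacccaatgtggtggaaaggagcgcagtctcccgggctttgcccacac
Mcm6, chr1:128359706-128359855, minus strand: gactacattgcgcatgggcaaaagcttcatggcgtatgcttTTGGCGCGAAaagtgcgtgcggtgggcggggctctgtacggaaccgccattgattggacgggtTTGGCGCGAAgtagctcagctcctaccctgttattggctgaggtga
Mcm7, chr5:138171267-138171416, minus strand: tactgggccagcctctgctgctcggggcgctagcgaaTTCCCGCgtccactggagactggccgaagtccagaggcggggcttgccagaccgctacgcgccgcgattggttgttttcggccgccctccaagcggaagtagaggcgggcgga
Top2a, chr11:99024190-99024339, minus strand: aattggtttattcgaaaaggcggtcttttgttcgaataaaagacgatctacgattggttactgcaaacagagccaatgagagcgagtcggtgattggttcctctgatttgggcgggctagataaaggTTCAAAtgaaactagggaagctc
Kif11, chr19:37376232-37376381, plus strand: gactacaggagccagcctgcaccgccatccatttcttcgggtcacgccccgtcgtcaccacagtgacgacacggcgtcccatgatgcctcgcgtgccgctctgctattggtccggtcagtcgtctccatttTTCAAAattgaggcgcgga
Cdc20, chr4:118437344-118437493, minus strand: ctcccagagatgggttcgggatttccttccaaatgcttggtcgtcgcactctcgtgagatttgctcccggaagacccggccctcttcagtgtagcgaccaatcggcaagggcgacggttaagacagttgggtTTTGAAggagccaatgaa
Rrm1 holds 1 E2F word, Mcm6 holds 4 in overlapping pairs, and Mcm7 holds 1 before this start, the second of its starts in RefSeq. Top2a, Kif11 and Cdc20 each hold 1 CHR word within these bases. Of all 6 G2/M members with a CHR word, Top2a rose in the TSA group, Kif11 and Ccnb2 fell, and Cdc20, Cdk1 and Mki67 did not pass the test.

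In the Vehicle group Rrm2, Gmnn and several mitotic regulators led the members. Per kilobase of exon, the highest level in Vehicle was that of Rrm2, the small subunit of ribonucleotide reductase, at 492 CPM per kb. It was followed by Gmnn, the licensing inhibitor geminin, at 277, and Birc5, the survivin subunit of the chromosomal passenger complex, at 249. Next came Ccnb2 (cyclin B2) at 209, Aurka (Aurora A kinase) at 200, Ccnb1 (cyclin B1) at 179 and Cdc20, an activator of the anaphase-promoting complex, at 169 CPM per kb. Cdk4 led the G1/S regulators at 131 CPM per kb, and Ccnd2 (cyclin D2) was the lowest tested member at 0.0801. In siControl the first 3 were Rrm2, Birc5 and Gmnn, at 422, 237 and 199 CPM per kb. Cdt1, which loads the MCM helicase at origins, had 0 counts in all 27 libraries and was not tested, so 41 members were tested in each family. In GENCODE vM21 Cdt1 lies wholly inside Gm20388, a gene model on the same strand (chr8:119910841-124345722) that has no row of its own in the table. All 36 protein-coding genes on that strand inside the model were at 0 in every library, against 0 of the 35 on the opposite strand and 2362 of 21535 protein-coding genes in all. The 0 is therefore not read as a level of Cdt1, and its cause was not tested.

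**Figure D1:**
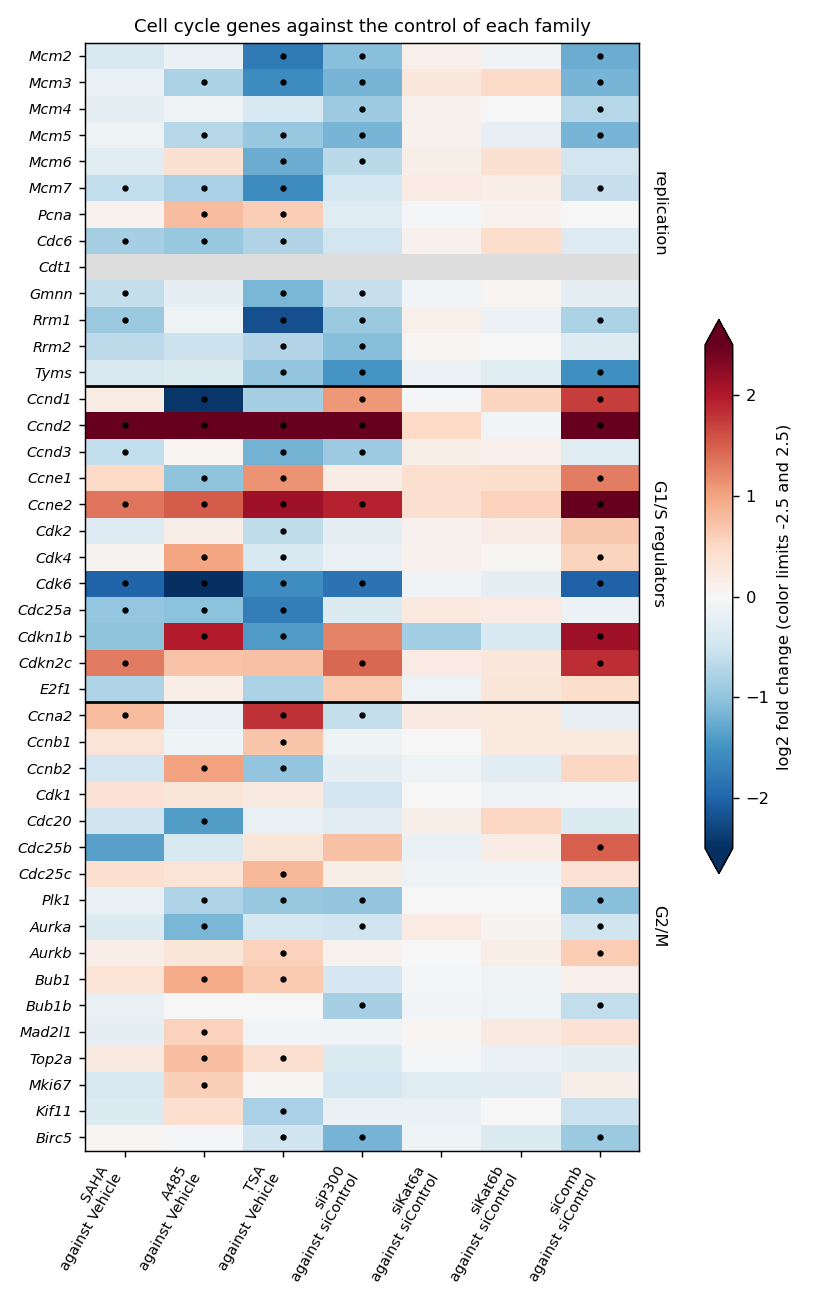
Log2 fold change (color) of the 42 members (rows, in their 3 classes) in 7 groups against the control of their family (columns). Black dots mark an adjusted p under 0.05 and gray marks Cdt1, which was at 0 counts. Replication genes are mainly blue for TSA, siP300 and siComb. Ccnd2 and Ccne2 are red with a dot, and Cdk6 is blue with a dot, in 5 of the 7 columns. The siKat6a and siKat6b columns hold no dot.

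How many members moved differed between the groups. In the SAHA group 4 of the 41 rose and 7 fell, together 26.8%, beside 34.2% of all genes tested (20.2% higher and 14% lower). In the A485 group 10 rose and 11 fell (51.2%), beside 45.5% (21.4% higher and 24.2% lower). In the TSA group 10 rose and 20 fell (73.2%), beside 58.1% (31.6% higher and 26.6% lower). In siP300 4 rose and 16 fell (48.8%), beside 35.4% (19.7% higher and 15.7% lower), and in siComb 9 rose and 12 fell (51.2%), beside 36.7% (19.6% higher and 17.1% lower). For SAHA and A485 the share of members called was thus under or near that of all genes. Without SAHA replicate 3 the SAHA count was 3 fallen in place of 7. Scaling by library size alone moved the median of all genes from 0.12 to 0.45 in siP300 and from 0.09 to 0.36 in siComb, and the share of higher genes among those called from 55.8 to 77% and from 53.5 to 70.4%. Under it 4 members rose and 10 fell in siP300, and 13 rose and 8 fell in siComb. Without the 4 libraries with high MERVL, 4 rose and 19 fell in siP300, and 9 rose and 11 fell in siComb.

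In siKat6a and siKat6b edgeR called 0 of 41 members, beside 0% and 0.0209% of all genes. At an unadjusted p under 0.05 there were 0 members in siKat6a and 3 in siKat6b, and DESeq2 called 0 in both. The 3 were Mcm3 (log2 fold change 0.47), Ccne2 (0.57) and Cdc20 (0.52), with adjusted p of 0.392, 0.357 and 0.41.

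Replication genes mostly fell in TSA, siP300 and siComb. In the TSA group 10 of the 12 tested fell (83.3%, beside 26.6% of all genes) and 1 rose, with a median log2 fold change of -1.06 against 0.08 over all genes. In siP300 9 of 12 fell (75%, beside 15.7%) and 0 rose, with a median of -0.92 against 0.12. In siComb 7 of 12 fell (58.3%, beside 17.1%) and 0 rose, with a median of -0.64 against 0.09. Without the 4 libraries with high MERVL, 11 fell in siP300 and 8 in siComb. In SAHA and in A485 4 of 12 fell (33.3%, beside 14% and 24.2%), with medians of -0.40 and -0.28 against 0.06 and -0.06. Without SAHA replicate 3 the SAHA count was 2. In TSA, siP300 and siComb the median stayed below 0 under every scaling tried, and with library size alone 7 fell in siP300 and 5 in siComb. In these bulk pools fewer cells in S phase and less of each RNA per cell cannot be told apart.

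The summed level of the 13 replication genes was 3421, 3525 and 3990 CPM in the 3 Vehicle libraries and 1914, 1939 and 2106 CPM in the TSA libraries. It was 2414, 2587 and 2587 CPM in SAHA. All TSA and all SAHA libraries lay below all Vehicle libraries, and TSA lay below SAHA. The A485 libraries stood at 2156, 2710 and 4045 CPM and spread widely, with the third above every Vehicle library and the first far below. Rrm2 was the largest part of the sum in every library. Alone it gave 1284, 1234 and 1574 CPM in Vehicle, 791, 871 and 879 CPM in SAHA and 512, 842 and 1426 CPM in A485. In siControl the sum was 2998, 2801 and 2893 CPM, in siP300 1556, 1458 and 1452 CPM and in siComb 1808, 2110 and 2047 CPM, and neither treated group overlapped the control. The siKat6a libraries, at 3279, 2844 and 2666 CPM, lay within and on both sides of siControl. In siKat6b, at 2914, 2910 and 2850 CPM, all 3 lay within its range.

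**Figure D2:**
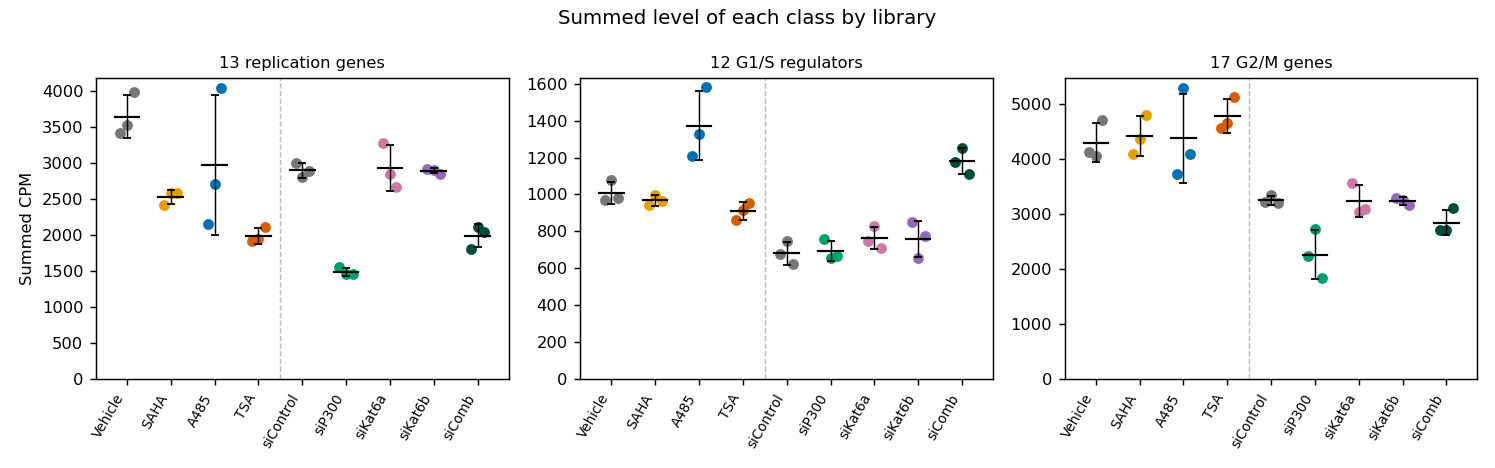
Summed CPM of each class (vertical axis from 0) in each library (dots), with the mean (bar) and SD (whiskers) of the 3 libraries of a group. A dashed line separates the inhibitor family from the siRNA family. Replication genes are lower in SAHA, TSA, siP300 and siComb than in the controls, the G1/S sum is higher in A485 (with Cdk4 counted) and in siComb, and G2/M genes are lower in siP300.

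The MCM2-7 helicase unwinds DNA at the fork, and its subunits did not fall evenly. Mcm2 was at 72.6, 100 and 88.6 CPM in Vehicle and at 19.6, 30 and 24 CPM in TSA (log2 fold change -1.76, SE 0.25, adjusted p = 3.69e-05, edgeR). Every TSA library was less than every Vehicle library, with no overlap. Mcm3 went from 113, 129 and 114 CPM to 44.3, 36.7 and 33 CPM in TSA (log2 fold change -1.58, SE 0.19, adjusted p = 9.68e-06, edgeR) and Mcm7 from 163, 164 and 179 CPM to 47.2, 64.2 and 51.9 CPM (log2 fold change -1.56, SE 0.18, adjusted p = 4.78e-06, edgeR). Again no library of one group reached the other. Mcm6 (-1.25) and Mcm5 (-0.95) fell as well, whereas Mcm4, at 108, 111 and 124 CPM beside 129, 142 and 195 CPM in Vehicle, did not pass the test (adjusted p = 0.201). In the A485 group Mcm3 (-0.80), Mcm5 (-0.72) and Mcm7 (-0.81) fell, while Mcm2, Mcm4 and Mcm6 did not pass (log2 fold changes -0.17, -0.09 and 0.38). With SAHA Mcm7 alone of the 6 fell, from the Vehicle values above to 122, 104 and 96.9 CPM (-0.61, adjusted p = 0.0132, edgeR). A call lost when 1 library was left out was Mcm7 in SAHA (without Vehicle 3 or SAHA 3, adjusted p up to 0.0652).

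Among the siRNA groups Mcm2, Mcm3, Mcm4 and Mcm5 fell in both siP300 and siComb. Mcm5 was at 120, 116 and 110 CPM in siControl, 70.1, 36.8 and 44.9 CPM in siP300 and 47, 52.6 and 55.4 CPM in siComb. Both treated groups lay wholly below the control (-1.17 and -1.16 on the log2 scale, adjusted p = 0.000486 and 0.000423, edgeR). Mcm3 was at 90, 91.6 and 74 CPM in siControl, 49.1, 31.7 and 32.4 CPM in siP300 and 35.3, 34.5 and 44.3 CPM in siComb, once more with the control highest (-1.15 and -1.16, adjusted p = 0.000388 and 0.00029, edgeR). In siP300 the first replicate was the highest for Mcm2, Mcm3, Mcm4 and Mcm5, and still below all siControl libraries. Mcm6 fell in siP300 (-0.67) and Mcm7 in siComb (-0.57), while Mcm6 in siComb (-0.47, adjusted p = 0.0707) and Mcm7 in siP300 (-0.44, adjusted p = 0.0677) did not pass. Calls lost when 1 library was left out were Mcm6 in siP300 (without siControl 1 or siP300 3, adjusted p up to 0.0702), Mcm4 in siComb (without siControl 1, siComb 1 or siComb 2, adjusted p up to 0.0662) and Mcm7 in siComb (without siControl 1 or siComb 1, adjusted p up to 0.0733). Under library size alone these 3 were lost as well, with adjusted p of 0.125, 0.114 and 0.224. Part of the Mcm7 exons (7.3%) is shared with Ap4m1 on the opposite strand. With no filter on low counts the adjusted p of Mcm7 in siComb was 0.0521.

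Among the replication genes the lowest log2 fold changes in TSA, siP300 and siComb were those of enzymes that make deoxynucleotides. Rrm1, the large subunit of ribonucleotide reductase, was at 247, 249 and 271 CPM in Vehicle, 111, 141 and 139 CPM in SAHA and 46.3, 61.4 and 51.1 CPM in TSA. The 3 groups were fully separated, with TSA lowest. Rrm1 was 4.61-fold lower in TSA (log2 fold change -2.21, SE 0.23, adjusted p = 2.94e-06, edgeR) and 1.91-fold lower in SAHA (log2 fold change -0.94, SE 0.23, adjusted p = 0.00543, edgeR). In the A485 group it stood at 143, 234 and 315 CPM, overlapping Vehicle (adjusted p = 0.696). Tyms, thymidylate synthase, was at 438, 408 and 466 CPM in siControl, 133, 195 and 140 CPM in siP300 and 136, 156 and 160 CPM in siComb. Both groups were far below the control, 2.77-fold (log2 fold change -1.47, SE 0.19, adjusted p = 4.46e-05, edgeR) and 2.9-fold (log2 fold change -1.54, SE 0.19, adjusted p = 1.86e-05, edgeR). Tyms fell in TSA too (-0.99, adjusted p = 0.000164).

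The small subunit, Rrm2, was at 1195, 1164 and 1151 CPM in siControl and 579, 439 and 643 CPM in siP300 (log2 fold change -1.06, SE 0.17, adjusted p = 0.000165, edgeR). In siComb it was at 905, 1042 and 875 CPM, below the control and above siP300 in every library (against siControl -0.31, adjusted p = 0.144). In the inhibitor family it was at 1284, 1234 and 1574 CPM in Vehicle, 768, 760 and 829 CPM in TSA and 791, 871 and 879 CPM in SAHA. All SAHA and TSA libraries lay below Vehicle, and just TSA passed (-0.73 and adjusted p = 0.0245, against 0.0632 for SAHA, edgeR). The A485 libraries, at 512, 842 and 1426 CPM, reached from far below Vehicle into its range. The TSA call was lost when 1 library was left out, as Rrm2 in TSA (without Vehicle 3, TSA 1 or TSA 2, adjusted p up to 0.0767), and with DESeq2 (adjusted p = 0.0525).

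Origin licensing genes and the sliding clamp split apart. Gmnn, which binds Cdt1 and keeps origins from firing again, was at 380, 414 and 425 CPM in Vehicle, 253, 273 and 260 CPM in SAHA and 158, 193 and 180 CPM in TSA. No library overlapped between the 3 groups (-0.59 and -1.13 on the log2 scale, adjusted p = 0.00837 and 2.82e-05, edgeR). Cdc6, which loads MCM with Cdt1, fell in all 3 inhibitor groups (-0.82 in SAHA, -0.95 in A485 and -0.76 in TSA) and did not pass in siP300 or siComb (-0.46 and -0.32). Gmnn fell in siP300 (-0.58, adjusted p = 0.0417) and did not pass in siComb (-0.24). Leaving out 1 library ended the calls of Cdc6 in SAHA (without SAHA 3, adjusted p = 0.0638) and Gmnn in siP300 (without siControl 1, siControl 3, siP300 1 or siP300 3, adjusted p up to 0.168). Pcna, the clamp that holds the polymerases, moved the other way. It was at 226, 205 and 240 CPM in Vehicle, 307, 358 and 463 CPM in A485 and 356, 257 and 373 CPM in TSA, and every A485 and TSA library was above every Vehicle library (0.78 and 0.62, adjusted p = 0.00294 and 0.00921, edgeR). Pcna did not pass in siP300 (-0.31) or siComb (0.0). Gmnn in siP300 was lost as well with library size alone (adjusted p = 0.229), DESeq2 size factors (0.0535) and the replicate block (0.0562).

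**Figure D3:**
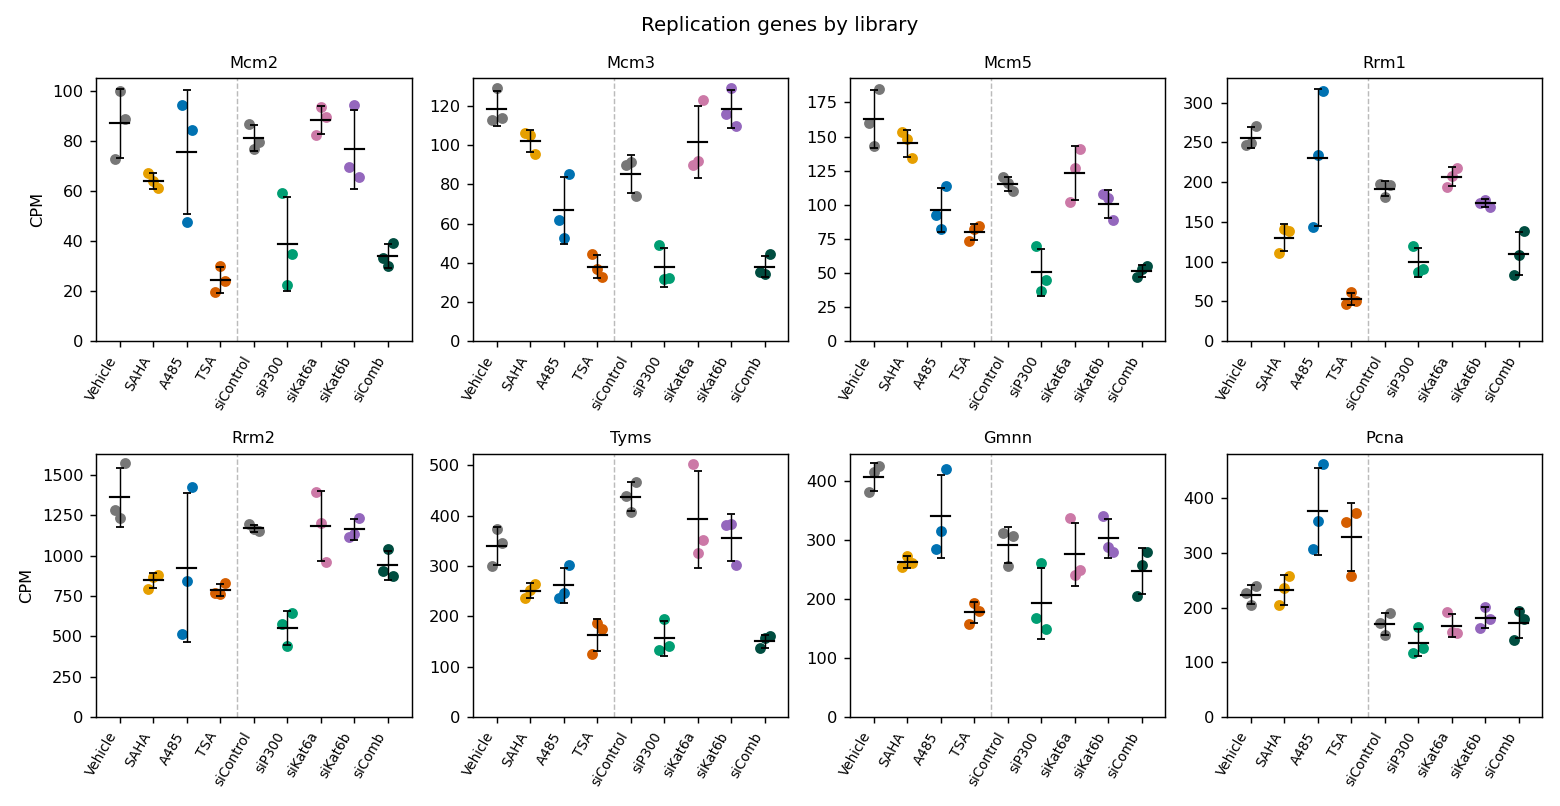
CPM (vertical axis from 0) of 8 replication genes in each library (dots), with the mean (bar) and SD (whiskers) of the 3 libraries of a group. Rrm1 is lowest in TSA, Tyms is lowest in siP300, siComb and TSA, and Pcna is higher in A485 and TSA than in Vehicle.

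G1/S regulators moved in both directions. Of 12 tested, 3 rose and 3 fell in SAHA, 4 and 4 in A485, 3 and 6 in TSA, 4 and 2 in siP300, and 7 and 1 in siComb. In siComb 58.3% rose beside 19.6% of all genes, and 8.33% fell beside 17.1%. In TSA 25% rose beside 31.6%, and 50% fell beside 26.6%. In siP300 33.3% rose beside 19.7%, and 16.7% fell beside 15.7%. In SAHA 25% rose beside 20.2% and 25% fell beside 14%, and in A485 33.3% rose beside 21.4% and 33.3% fell beside 24.2%. The summed level of the 12 was higher in A485, at 1211, 1328 and 1581 CPM, than in Vehicle, at 969, 1076 and 982 CPM. Without Cdk4, left out after the values were seen, the other 11 summed to 457, 503 and 694 CPM in A485 and 557, 639 and 556 CPM in Vehicle, and the groups overlapped. In siComb the 11 stood at 737, 740 and 682 CPM, above siControl at 370, 417 and 318 CPM. The median log2 fold change of the 12 was 0.98 in siComb and -0.71 in TSA. Ccnd2 and Ccne2 rose, and Cdk6 fell, in SAHA, A485, TSA, siP300 and siComb alike. SAHA, A485 and TSA share the Vehicle libraries, and siP300 and siComb share those of siControl, so these are not 5 independent comparisons. In TSA the count of fallen regulators was 3 without Vehicle replicate 1, and in SAHA it was 1 without Vehicle replicate 2.

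Ccnd2 was barely detected in Vehicle, at 1.02, 0.601 and 0.641 CPM. It stood at 10.5, 12.5 and 9.29 CPM in SAHA, 2.36, 0.984 and 11.4 CPM in A485 and 53.1, 23.4 and 64.2 CPM in TSA. TSA libraries were the highest and SAHA next, both clear of Vehicle, while the second A485 library lay within the Vehicle range. The log2 fold changes were 3.85, 2.71 and 6.0 (adjusted p = 0.00134, 0.00948 and 1.53e-05, edgeR), and the sizes rest on Vehicle counts of 6 to 10 per library. Without A485 replicate 3 the A485 call was lost (adjusted p = 0.11). In the siRNA family Ccnd2 was at 4.49, 2.98 and 1.91 CPM in siControl, 58.9, 35.9 and 68.6 CPM in siP300 and 104, 83.6 and 87.7 CPM in siComb. All 6 treated libraries were above 35 CPM, against under 5 CPM in the control (log2 fold change 4.14, SE 0.35, adjusted p = 7.34e-07 in siP300, and log2 fold change 4.88, SE 0.36, adjusted p = 1.63e-07 in siComb, edgeR).

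Cyclin D1 fell in A485, where cyclin D2 rose, and both rose in siP300 and siComb. Ccnd1 was at 5.31, 17.8 and 5.76 CPM in Vehicle and 3.03, 1.38 and 0.749 CPM in A485, where all 3 libraries were lower than all Vehicle libraries (log2 fold change -2.43, SE 0.58, adjusted p = 0.00366, edgeR). In siControl it was at 7.55, 10.5 and 8.99 CPM, in siP300 at 21.3, 15.2 and 20 CPM and in siComb at 37.7, 26.7 and 25.3 CPM. Both siRNA groups lay above the control (1.08 and 1.73, adjusted p = 0.02 and 0.000888, edgeR). Ccnd1 thus fell with A485 and rose in the group labelled siP300. These groups have different controls and were treated at different stages, and the difference between them was not tested. Ccnd1 shares 23.4% of its exon bases with LTO1 on the opposite strand, which fell in A485 (-1.07) and did not pass in siP300 (-0.11) or siComb (-0.18). Cyclin D3, Ccnd3, fell in SAHA (-0.62), TSA (-1.18) and siP300 (-0.91) and was at 0.05 in A485 and -0.30 in siComb (adjusted p = 0.886 and 0.499). Calls lost when 1 library was left out were Ccnd1 in siP300 (without siControl 1, siControl 3 or siP300 1, adjusted p up to 0.0852), Ccnd3 in SAHA (without Vehicle 1, Vehicle 2, SAHA 2, SAHA 3 or TSA 2, adjusted p up to 0.151) and Ccnd3 in siP300 (without siControl 1, siControl 2, siP300 2 or siP300 3, adjusted p up to 0.17). Ccnd3 in siP300 was lost under library size alone (adjusted p = 0.188) and without the 4 libraries with high MERVL (0.076), and with all 27 libraries in 1 fit Ccnd3 in SAHA (0.0982) and Ccnd1 in siP300 (0.0728) were lost.

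Of the E cyclins, which activate Cdk2, Ccne2 rose in 5 groups and Ccne1 in TSA and siComb. Ccne2 was at 21.1, 14.8 and 21.5 CPM in Vehicle, 43.7, 45.3 and 52.3 CPM in SAHA, 38, 38.2 and 84.9 CPM in A485 and 95.6, 57 and 84.6 CPM in TSA, and none of the treated libraries reached down to Vehicle. It was at 20.4, 15.1 and 24.3 CPM in siControl, 65.6, 83.7 and 74.9 CPM in siP300 and 103, 128 and 114 CPM in siComb, again with no overlap. The fold changes were 2.53, 2.87 and 4.33 for the inhibitors and 3.79 and 5.76 for siP300 and siComb (adjusted p from 0.00382 in SAHA to 8.24e-07 in siComb, edgeR). Ccne2 shares 17.4% of its exon bases with Ints8 on the opposite strand, and Ints8 rose in A485 (1.45), TSA (1.22), siP300 (1.32) and siComb (1.80). The strand setting of the counting is not given in the sources used here, so the part of Ints8 in the Ccne2 counts cannot be told apart. Ccne1 was at 85.3, 167 and 124 CPM in Vehicle, 49.2, 42.1 and 92.8 CPM in A485 and 222, 279 and 284 CPM in TSA. All TSA libraries were higher than Vehicle (1.13, adjusted p = 0.00452), and the A485 libraries were lower except for the third, which overlapped Vehicle (-1.0, adjusted p = 0.0129, edgeR). In siComb Ccne1 rose from 100, 109 and 76.3 to 217, 285 and 193 CPM (log2 fold change 1.29, SE 0.23, adjusted p = 0.000389, edgeR), and in siP300 it did not pass (0.19). A call lost when 1 library was left out was Ccne1 in A485 (without Vehicle 2, A485 1 or A485 2, adjusted p up to 0.0745).

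Of the kinases, Cdk6 was at 15.7, 20.3 and 15.5 CPM in siControl, 3.21, 5.89 and 4.97 CPM in siP300 and 3.9, 5.93 and 2.73 CPM in siComb, with the control clearly higher in every library (log2 fold change -1.86, SE 0.32, adjusted p = 0.000391 in siP300, and log2 fold change -2.03, SE 0.32, adjusted p = 0.000157 in siComb, edgeR). In Vehicle it was at 8.77, 9.32 and 7.9 CPM and in A485 at 1.35, 0.984 and 1.12 CPM (log2 fold change -2.86, SE 0.63, adjusted p = 0.00207, edgeR). In SAHA it was at 0.733, 4.7 and 0.714 CPM and in TSA at 3.17, 3.61 and 1.64 CPM, both below Vehicle, with the second SAHA library apart from the other 2 (-2.0 and -1.56, adjusted p = 0.0196 and 0.0378). Cdk4, its more abundant partner in binding cyclin D, was at 412, 437 and 427 CPM in Vehicle, 754, 825 and 886 CPM in A485 and 291, 306 and 336 CPM in TSA. A485 stood well above Vehicle and TSA below it, with no overlap (log2 fold change 0.98, SE 0.12, adjusted p = 1.97e-05 in A485, edgeR, and -0.38 with adjusted p = 0.0151 in TSA). It rose in siComb, from 308, 327 and 303 to 440, 514 and 431 CPM (0.56, adjusted p = 0.00803), and was at -0.18 in siP300. Cdk4 shares 19.7% of its exon bases with Tspan31 on the opposite strand, which rose in A485 (1.19), siComb (1.71), TSA (1.06), SAHA (0.89) and siP300 (0.83). Cdk2, the partner of cyclin E, fell in TSA (-0.63) with overlapping groups, and passed in no other group against its control. With 1 library left out the calls lost were Cdk6 in SAHA (without Vehicle 2, SAHA 1 or SAHA 3, adjusted p up to 0.0769), Cdk6 in TSA (without Vehicle 1, Vehicle 2, Vehicle 3, TSA 1, TSA 2 or TSA 3, adjusted p up to 0.122), Cdk4 in TSA (without Vehicle 3 or TSA 2, adjusted p up to 0.0564) and Cdk2 in TSA (without Vehicle 1, Vehicle 3, TSA 1 or TSA 3, adjusted p up to 0.148). With DESeq2 size factors the adjusted p of Cdk4 in TSA was 0.115. They gave 0.0555 for Cdk6 and 0.0991 for Cdk2 in TSA, and DESeq2 itself gave 0.0879 for Cdk2 and 0.0707 for Cdk4.

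Cdc25a, the phosphatase that activates Cdk2, fell in all 3 inhibitor groups. It was at 40.4, 41.9 and 46.1 CPM in Vehicle, 23, 21.3 and 19.5 CPM in SAHA, 23.6, 16.5 and 21.7 CPM in A485 and 8.92, 14.7 and 13.1 CPM in TSA. TSA was the lowest and each group was clear of Vehicle (log2 fold change -1.74, SE 0.23, adjusted p = 2.06e-05 in TSA, edgeR, and -0.97 and -1.02 in SAHA and A485). In siP300 and siComb it did not pass (-0.35 and -0.14). Cdkn1b, which encodes the CDK inhibitor p27, was at 4.69, 3.41 and 3.84 CPM in Vehicle, 19, 12.6 and 13.8 CPM in A485 and 2.59, 0.556 and 1.09 CPM in TSA. It rose in A485 (log2 fold change 1.96, SE 0.42, adjusted p = 0.00171, edgeR) and fell in TSA (-1.42, adjusted p = 0.0182), in both without overlap. In siComb it rose from 0.612, 1.39 and 0.574 to 5.26, 3.15 and 2.92 CPM (2.12, adjusted p = 0.0198), on 6 to 62 counts per library. Leaving out 1 library ended the calls of Cdkn1b in TSA (without Vehicle 1, TSA 2 or TSA 3, adjusted p up to 0.0771) and Cdkn1b in siComb (without siControl 1, siControl 3 or siComb 1, adjusted p up to 0.0836). Cdkn2c, encoding the Cdk4 and Cdk6 inhibitor p18, rose in SAHA (1.30), siP300 (1.44) and siComb (1.84) and was at 0.72 in A485 and 0.73 in TSA (adjusted p = 0.0781 and 0.0639). E2f1, at under 9 CPM in every library, passed in none of these 5 groups.

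**Figure D4:**
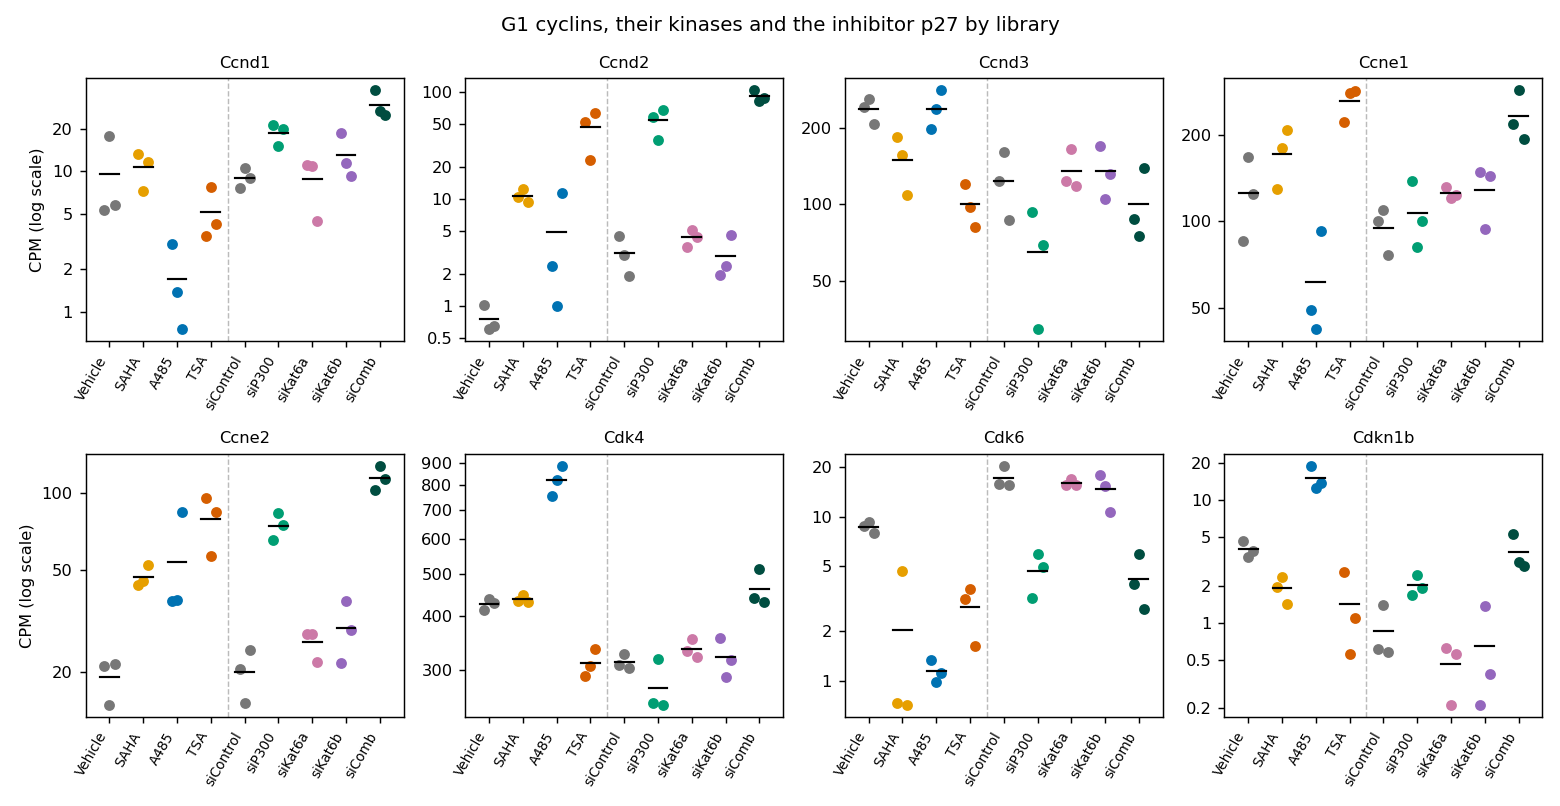
CPM (log axis) of the D and E cyclins, Cdk4, Cdk6 and Cdkn1b in each library (dots), with the group mean (bar). Ccnd2 and Ccne2 are above and Cdk6 is below the control in SAHA, A485 (apart from 1 library for Ccnd2), TSA, siP300 and siComb, and Cdkn1b is highest in A485.

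G2/M genes were split. Of 17 tested, 1 rose and 0 fell in SAHA, 5 and 3 in A485, 6 and 4 in TSA, 0 and 5 in siP300, and 2 and 4 in siComb. In TSA 58.8% were called, beside 58.1% of all genes, in SAHA 5.88%, beside 34.2%, in A485 47.1%, beside 45.5%, in siP300 29.4%, beside 35.4%, and in siComb 35.3%, beside 36.7%. Counting both directions, these shares were near or under that of all genes in every one of the 5 groups. By direction, 29.4% fell in siP300 beside 15.7% of all genes, and 0% rose beside 19.7%. In siComb 23.5% fell beside 17.1%, and 11.8% rose beside 19.6%. In TSA 35.3% rose beside 31.6%, and 23.5% fell beside 26.6%. In A485 29.4% rose beside 21.4%, and 17.6% fell beside 24.2%. In SAHA 5.88% rose beside 20.2%, and 0% fell beside 14%. The summed level of the 17 was 4124, 4053 and 4696 CPM in Vehicle and 4553, 4656 and 5122 CPM in TSA, and the groups overlapped. It was 3216, 3337 and 3189 CPM in siControl, 2228, 2716 and 1836 CPM in siP300 and 2698, 2715 and 3098 CPM in siComb, where all treated libraries lay below all control libraries. Median log2 fold changes were 0.03 in TSA, -0.34 in siP300 and -0.07 in siComb, against 0.08, 0.12 and 0.09 over all genes, and library size alone turned those of TSA and siComb to -0.06 and 0.19. Without TSA replicate 3 the TSA count was 2 risen in place of 6. In siComb the count of risen genes was 0 without siControl replicate 2 and that of fallen genes 2 without siControl replicate 1. In siP300 3 fell without siControl replicate 2. Without the 4 libraries with high MERVL, 7 fell in siP300 and 2 in siComb.

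The cyclins themselves separated in TSA. Ccna2, cyclin A2, which acts in S phase and at entry into mitosis, was at 234, 274 and 297 CPM in Vehicle, 431, 406 and 515 CPM in SAHA and 975, 854 and 844 CPM in TSA. The 3 groups formed separate steps, 1.72-fold above Vehicle in SAHA (log2 fold change 0.79, SE 0.17, adjusted p = 0.00229, edgeR) and 3.48-fold in TSA (log2 fold change 1.80, SE 0.17, adjusted p = 9.6e-07, edgeR). In siP300 it fell, from 293, 320 and 273 to 235, 186 and 157 CPM (-0.60, adjusted p = 0.012). Exosc9 shares 12.5% of the Ccna2 exon bases on the opposite strand. It rose in TSA (0.46, adjusted p = 0.0123), fell in siP300 (-0.49, adjusted p = 0.0188, edgeR) and did not pass in SAHA (0.195). With the strand setting not given, the part of Exosc9 in the Ccna2 counts cannot be told apart. Ccnb1 was at 673, 713 and 878 CPM in Vehicle and 1106, 1067 and 1328 CPM in TSA, without overlap (0.70, adjusted p = 0.0267). Ccnb2 went from 329, 277 and 353 CPM to 156, 129 and 178 CPM in TSA and to 447, 845 and 591 CPM in A485. It was below Vehicle in every TSA library (log2 fold change -0.99, SE 0.21, adjusted p = 0.0011, edgeR) and above it in every A485 library (log2 fold change 1.0, SE 0.21, adjusted p = 0.0013, edgeR). Cdk1, the kinase that these cyclins activate, passed in no group, with log2 fold changes of 0.37 in SAHA, 0.30 in A485, 0.22 in TSA, -0.48 in siP300 and -0.07 in siComb. With 1 library left out the calls lost were Ccna2 in siP300 (without siControl 2 or siP300 3, adjusted p up to 0.0569) and Ccnb1 in TSA (without Vehicle 1, Vehicle 2 or TSA 3, adjusted p up to 0.0921). Ccna2 in siP300 was lost under library size alone (-0.28, adjusted p = 0.144) and Ccnb1 in TSA with all 27 libraries in 1 fit (adjusted p = 0.0737).

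Cdc20, Aurka and Plk1 fell in A485, and Plk1, Aurka and Birc5 in both siP300 and siComb. Cdc20 was at 272, 289 and 384 CPM in Vehicle and 96.4, 155 and 102 CPM in A485, well apart (2.62-fold lower, log2 fold change -1.39, SE 0.21, adjusted p = 0.000114, edgeR). Aurka was at 473, 463 and 581 CPM in Vehicle and 169, 318 and 189 CPM in A485 (log2 fold change -1.13, SE 0.22, adjusted p = 0.000711, edgeR), and it fell in siP300 (-0.49) and siComb (-0.5). Plk1, the polo-like kinase of mitotic entry and exit, fell in A485 (-0.77), TSA (-0.96), siP300 (-0.98) and siComb (-1.04). Its levels were 68.4, 72.9 and 58.3 CPM in siControl, 45.6, 28.1 and 26.1 CPM in siP300 and 25.1, 33 and 39 CPM in siComb. Every treated library was below every control library (adjusted p = 0.00265 and 0.00151, edgeR). Plk1 shares 7.1% of its exon bases with Gm44985 on the opposite strand. Gm44985 fell in TSA (-0.85, adjusted p = 0.0122, edgeR) and did not pass in A485 (-0.61), siP300 (-0.345) or siComb (-0.66). Birc5 was at 827, 755 and 839 CPM in siControl, 355, 374 and 332 CPM in siP300 and 407, 315 and 560 CPM in siComb, again without overlap (log2 fold change -1.17, SE 0.19, adjusted p = 0.000207 in siP300, and log2 fold change -0.92, SE 0.19, adjusted p = 0.00116 in siComb, edgeR), and it fell in TSA (-0.49). Its partner kinase Aurkb rose in TSA (0.58) and siComb (0.63). Calls lost when 1 library was left out were Plk1 in A485 (without A485 1, adjusted p = 0.0506), Aurka in siP300 (without siControl 1, siControl 2 or siP300 3, adjusted p up to 0.103), Aurka in siComb (without siControl 1, siControl 2 or siComb 2, adjusted p up to 0.0855), Aurkb in TSA (without Vehicle 1, Vehicle 3, TSA 2 or TSA 3, adjusted p up to 0.155) and Aurkb in siComb (without siControl 1, siControl 2, siControl 3, siKat6a 1, siKat6a 2, siKat6b 1, siKat6b 2, siKat6b 3 or siComb 2, adjusted p up to 0.196). Under library size alone Aurka was lost in siP300 (-0.18, adjusted p = 0.324) and siComb (-0.24, adjusted p = 0.185), and Aurkb in TSA (adjusted p = 0.0537). With no filter Aurka was lost in both (0.0613 and 0.0768), and without the 4 libraries with high MERVL Aurka (0.0694) and Aurkb (0.155) were lost in siComb. With all 27 libraries in 1 fit Aurkb in TSA was lost (0.0533).

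**Figure D5:**
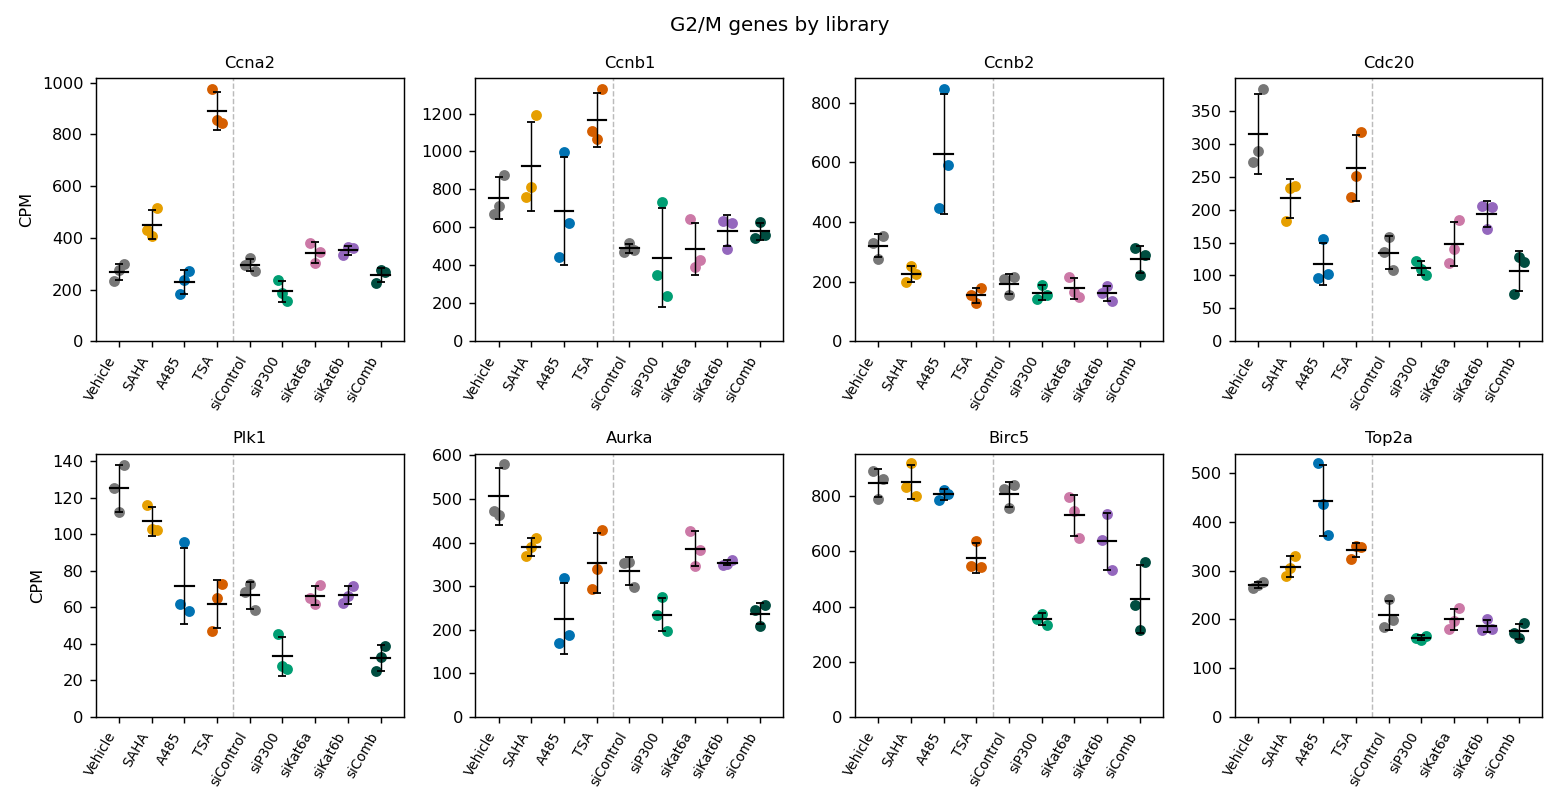
CPM (vertical axis from 0) of 8 G2/M genes in each library (dots), with the mean (bar) and SD (whiskers) of the 3 libraries of a group. Ccna2 steps up from Vehicle to SAHA to TSA, Ccnb2 is above Vehicle in A485 and below it in TSA, and Birc5 is lowest in siP300 and siComb.

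Of the spindle checkpoint genes, Bub1 and Mad2l1 rose in A485 and Bub1b (0.01, adjusted p = 0.986) did not pass. Top2a, topoisomerase II alpha, was at 264, 270 and 276 CPM in Vehicle and 521, 437 and 374 CPM in A485, with no overlap (log2 fold change 0.75, SE 0.14, adjusted p = 0.00067, edgeR). Bub1 (0.93), Mad2l1 (0.58) and Mki67 (0.60), which coats mitotic chromosomes, rose too, while Aurkb, Birc5 and Kif11 did not pass (adjusted p = 0.244, 0.829 and 0.0846). In TSA Bub1 (0.66) and Top2a (0.41) rose, and so did the phosphatase Cdc25c, from 63.4, 62.1 and 61.5 to 102, 109 and 106 CPM (log2 fold change 0.83, SE 0.16, adjusted p = 0.000475, edgeR). The spindle motor Kif11 fell in TSA, from 78.4, 85.5 and 86 to 36.6, 44.9 and 54.7 CPM (log2 fold change -0.81, SE 0.19, adjusted p = 0.00192, edgeR). Bub1b, which encodes the checkpoint protein BubR1, fell in siP300 (-0.83) and siComb (-0.62), and Cdc25b rose in siComb (1.5), from 3.67, 2.78 and 1.53 to 10.2, 4.08 and 8.39 CPM. Leaving out 1 library ended the calls of Mki67 in A485 (without Vehicle 2, Vehicle 3 or A485 1, adjusted p up to 0.127), Bub1 in TSA (without Vehicle 2 or TSA 3, adjusted p up to 0.0712), Top2a in TSA (without Vehicle 1, Vehicle 2 or TSA 3, adjusted p up to 0.0806), Bub1b in siComb (without siControl 1, siControl 2 or siComb 2, adjusted p up to 0.0934) and Cdc25b in siComb (without siControl 2, siControl 3, siComb 1 or siComb 3, adjusted p up to 0.124). Under library size alone Bub1b was lost in siP300 (-0.52, adjusted p = 0.0744) and siComb (-0.35, adjusted p = 0.216), and Top2a in TSA (adjusted p = 0.0824). Bub1b in siComb was lost too with no filter (0.0933), with all 27 libraries in 1 fit (0.0587) and without the 4 libraries with high MERVL (0.0683). Top2a in TSA was lost with no filter (0.146), and Cdc25b in siComb with all 27 libraries in 1 fit (0.077) and with the replicate block (0.0502).

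TSA against SAHA asks where the deacetylase inhibitors, given at different doses, left different levels: 2 members were higher in TSA and 12 lower, beside 21.8% of all genes called (9.79% higher and 12% lower). Other scalings moved the share of higher genes among all genes called from 45 to 56.9% (DESeq2 size factors) and 37.6% (library size alone). Without TSA replicate 1 the count of members was 8 in place of 14. Of the 12, 8 were replication genes, with Mcm3 (-1.40), Mcm2 (-1.36) and Rrm1 (-1.27) the furthest apart (adjusted p = 3e-04, 0.00195 and 0.00184, edgeR). Ccna2 (1.01) and Ccnd2 (2.15) were higher in TSA, and the call of Ccnd2 was lost without any 1 of 5 of the 6 libraries compared (adjusted p up to 0.0759). For Cdc6 (0.07, SE 0.23) and Rrm2 (-0.08, SE 0.25) no difference was detected. TSA against A485, again at different doses, gave 8 members higher in TSA and 18 lower, beside 63.5% of all genes (36.1% higher and 27.4% lower), where the median of all genes was 0.27. Ccna2 was 3.98-fold and Ccne1 4.36-fold higher in TSA, while Cdkn1b was 10.5-fold, Rrm1 4.25-fold, Ccnb2 3.97-fold and Cdk4 2.58-fold lower (adjusted p from 2.75e-07 for Ccna2 to 3.16e-05 for Ccne1, edgeR). Against Vehicle 4 members had opposite calls in A485 and TSA: Ccne1, Cdk4, Cdkn1b and Ccnb2. siComb against siP300 gave 3 members higher in siComb, Rrm2 (0.75), Ccne1 (1.10) and Cdk4 (0.74), beside 0.798% of all genes, with adjusted p of 0.0444, 0.039 and 0.0387. Leaving out 1 library of the siRNA family at a time left 0 to 2 of these calls, and without the 4 libraries with high MERVL Rrm2 had an adjusted p of 0.207 and Ccne1 of 0.0871.

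The inhibitor and siRNA families do not share controls, so their calls can be set side by side. Of the 30 members called in TSA and the 20 in siP300, 14 were called in both in the same direction (46.7% of the first list and 70.0% of the second), among them Mcm2, Mcm3, Mcm5, Mcm6, Gmnn, Rrm1, Rrm2 and Tyms. Over all genes tested in both families the shares were 37.6% and 59.4%. Ccna2 was called in opposite directions. Of the 21 called in A485, 7 were called in siP300 in the same direction (33.3% and 35%, against 36.1% and 47.1% over all genes), with Ccnd1 opposite. A485 and siComb shared 10 (47.6% of each list of 21, against 41.0% and 51.1% over all genes), with Ccnd1 and Ccne1 opposite.

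Further cell cycle genes outside the 42 were counted in 7 lists, to be read beside the shares of all genes. Those shares were 31.6% risen and 26.6% fallen in TSA, 21.4% and 24.2% in A485, and 19.7% and 15.7% in siP300. In TSA 13 of 28 genes of the replication fork and nucleotide supply fell and 7 rose, and Tk1, thymidine kinase, had the lowest log2 fold change of the 28 (-4.62, adjusted p = 9.26e-09, edgeR). Tk1 fell in A485 (-2.69) and SAHA (-1.48) too, and did not pass in siP300 (-0.21) or siComb (-0.24). In siP300 13 of the 28 fell and 1 rose. Dut, which keeps uracil out of DNA, fell in siP300 (-1.21), siComb (-1.16), A485 (-0.83) and TSA (-0.99). Rfc4, of the clamp loader, fell in siP300 (-1.52) and siComb (-1.77) and rose in SAHA (0.72), A485 (0.49) and TSA (0.45). Of 18 origin licensing and firing genes 7 rose and 5 fell in A485 and 2 rose and 5 fell in TSA. Gins1, of the active helicase, fell in both (-0.96 and -1.73) and in SAHA (-0.69), siP300 (-0.93) and siComb (-0.82). Orc1, of the origin recognition complex, rose in TSA (2.35), SAHA (1.21) and siComb (0.59). Mybl2 (B-Myb), which acts with the MuvB core on G2/M promoters, fell in A485 (-3.80), TSA (-2.63), SAHA (-1.16), siP300 (-1.23) and siComb (-1.47). Among 19 genes of the E2F, RB and DREAM list, 8 rose and 3 fell in A485 and 5 rose and 6 fell in TSA.

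Genes that restrain the cycle were counted too. Of 15 CDK inhibitors and brakes tested, 10 rose and 3 fell in TSA, 5 and 3 in SAHA, and 5 and 2 in A485. Over all genes 31.6% rose and 26.6% fell in TSA, 20.2% and 14% in SAHA, and 21.4% and 24.2% in A485. Of 16 tested in the siRNA family, 7 rose and 2 fell in siP300 and 8 rose and 1 fell in siComb. Over all genes 19.7% rose and 15.7% fell in siP300, and 19.6% and 17.1% in siComb. Btg2, an antiproliferative gene, rose in TSA (2.87), SAHA (1.56), A485 (1.14), siP300 (1.76) and siComb (1.57). Cdkn1c, which encodes p57, rose in TSA (5.95, adjusted p = 7.29e-06), siP300 (4.30, adjusted p = 3.73e-07), siComb (3.41) and SAHA (3.53), and did not pass in A485 (-0.63). Rb1, the retinoblastoma gene, rose in siP300 (1.88), siComb (1.76), A485 (1.65) and TSA (1.36). On the mitotic side, 14 of 28 genes of spindle motors, chromosome structure and cytokinesis fell and 0 rose in siP300, beside 15.7% and 19.7% of all genes. In siComb 6 of these fell and 0 rose, beside 17.1% and 19.6%. Incenp, a partner of Birc5, fell in siP300 (-1.03), siComb (-1.27) and A485 (-0.95) and rose in SAHA (1.13) and TSA (0.94). Of 20 kinetochore and checkpoint genes 8 rose and 2 fell in A485, beside 21.4% and 24.2% of all genes. Of the anaphase-promoting complex, 8 of 18 fell and 3 rose in TSA, beside 26.6% and 31.6% of all genes. Anapc10 fell there (-1.46) as in A485 (-1.50), SAHA (-0.55), siP300 (-1.28) and siComb (-1.24). In siKat6a and siKat6b 0 genes of these lists were called by edgeR.

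Other measures moved with the same groups. The sum of the morula markers was 1970, 2768 and 3251 CPM in A485, 5482, 6538 and 4457 CPM in siP300 and 2890, 3906 and 4134 CPM in siComb, all far below the controls. It was 10374, 10332 and 15068 CPM in SAHA and 9339, 11974 and 15772 CPM in TSA, overlapping Vehicle. Of 9 markers tested 7 fell in each of A485, siP300, siComb and SAHA, and 8 in TSA. The shares of all genes that fell were 24.2%, 15.7%, 17.1%, 14% and 26.6%, in the same order. Genes of the 2-cell stage summed to 20217, 19451 and 25249 CPM in TSA and 7755, 4774 and 9644 CPM in SAHA. In Vehicle they summed to 6.02, 14.8 and 544 CPM. All 12 tested rose in TSA and in SAHA, beside 31.6% and 20.2% of all genes. In A485 9 of these 12 fell, beside 24.2% of all genes. Yet for just 1 of the 12 did all A485 libraries lie below all Vehicle libraries. The share of all genes lying so is not given here. Vehicle replicate 3, at 544 CPM, also held MERVL at 245 CPM, against 12.5 and 14.3 CPM in the other Vehicle libraries. Whether these genes fall without it was not tested. Of 10 tested in the siRNA family 6 rose in siP300 and 7 in siComb, with 0 fallen, beside 19.7% and 19.6% of all genes risen. The share of counts from mitochondrial genes was 0.997 to 1.2% in Vehicle, 1.61 to 2.16% in SAHA, 2.36 to 2.62% in A485 and 2.51 to 3.57% in TSA. It was 1.94 to 2.45% in siControl, 4.94 to 6.99% in siP300 and 4.86 to 5.41% in siComb. For markers of other cells, 8 blood and immune genes summed to 15, 19 and 14.7 CPM in siControl, 47.4, 125 and 97.7 CPM in siP300 and 43.1, 83.9 and 76.2 CPM in siComb, and to 11.9, 10.4 and 9.18 CPM in Vehicle, 18.8, 16.4 and 17.1 CPM in SAHA, 14.2, 16.2 and 22.8 CPM in A485 and 65.3, 40.6 and 49.8 CPM in TSA. Of these, Hba-a1 rose in siP300 (6.30), siComb (5.72), TSA (7.63), SAHA (4.73) and A485 (3.17), and so did Coro1a (2.88, 2.33, 3.52, 2.30 and 3.82), whereas Ptprc and Hbb-bs were under 1 CPM in every library. The 10 cumulus and granulosa genes summed to 2.25, 2.38 and 1.43 CPM in siControl, 12.4, 25 and 23.1 CPM in siP300 and 16, 23.1 and 9.48 CPM in siComb. Of 3 tested, 2 rose in siP300, Cyp11a1 (3.57) and Tnfaip6 (3.49), and all 3 rose in siComb, whereas Ptx3 and Has2 were under 1 CPM in every library. In the inhibitor family these 10 stood at 2.86, 2.2 and 1.07 CPM in Vehicle and 4.61, 4.45 and 7.1 CPM in TSA, where Cyp11a1 rose (2.53). The part of these measures in the changes of the members was not tested.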

How the data were processed

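Bulk polyA RNA of pooled mouse embryos was measured in 27 libraries, after cDNA amplification by PCR, per the labels' protocols. The authors deposited raw gene counts, 1 table for the whole series and 1 file for each sample, and all 27 columns equalled the sample files. STAR 2.7.11a, featureCounts and Subread 2.0.6 are named in the submitters' processing notes, along with MultiQC, Scanpy 1.8.2 and the builds mm10 and GRCh38, with no roles. Not given in the sources used here are the strandedness, the gene annotation and how paired reads were counted. Of the nonzero counts 83.3 to 85.9% were even numbers, the cause of which was not tested, and halved counts were tried. The table holds 55367 gene rows and 2 rows for MERVL, which were left out of library sizes and tests. Libraries were not identical within groups: over 27 pairs of replicates chi-square divided by its degrees of freedom was 8.35 to 48.89. Intervals from counting are not given, since amplified reads are not independent molecules.

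Counts were tested with edgeR 4.0.16 in R 4.3.3 (filterByExpr with a minimum count of 10, TMM, quasi-likelihood, no replicate block), with 12 inhibitor libraries in 1 fit and 15 siRNA libraries in the other. Adjusted p-values are Benjamini-Hochberg over all genes of a fit, and the threshold was 0.05. The fit was tested on simulated data. CPM per kb uses the exon union of GENCODE vM21. Promoters were read from RefSeq (GRCm38.p6), with chromosome 18, where Cdc25c lies, left out. Alternatives were DESeq2 1.42.0, its size factors in edgeR, library size alone, no filter, all 27 libraries in 1 fit, a replicate block, halved counts, the siRNA family without 4 libraries set apart by MERVL, and each library left out in turn. The 42 genes, their 3 classes and the further lists were chosen with earlier results of these data known, so no count of theirs is independent support. All members that passed the edgeR test are named or counted. Tables were handled in Python 3.11.15 with pandas 2.3.3, and figures drawn with matplotlib 3.10.9.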

Additional observations from a re-analysis of the deposited data

How the results depend on the processing

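Under the alternatives tried no member called in the main settings changed direction. Calls that held under every alternative numbered 7 of 11 in SAHA, 17 of 21 in A485, 21 of 30 in TSA, 13 of 20 in siP300 and 14 of 21 in siComb, 8 of 14 for TSA against SAHA, 19 of 26 for TSA against A485 and 0 of 3 for siComb against siP300. For siComb against siP300 the count of 3 became 5 with DESeq2, 1 with library size alone, 5 with no filter, 1 with all 27 libraries in 1 fit and 0 with the replicate block. Leaving out 1 library at a time gave 7 (without SAHA replicate 3) to 15 members for SAHA, 19 to 23 for A485, 24 to 31 for TSA, 8 to 18 for TSA against SAHA, 23 to 26 for TSA against A485, 15 to 22 for siP300, 15 to 23 for siComb, 0 to 2 for siComb against siP300, and 0 for siKat6a and siKat6b. The cause of these shifts was not tested. Whether replicate numbers pair the samples cannot be settled from groups of 3 libraries. Deviations of same-numbered libraries correlated at -0.088 to 0.347 over 30 pairs, 3 of them over 0.1. In 13 of the 30 a library correlated best with the same number in the other group. The pair at 0.347 was replicate 2 of siComb and of siP300, both among the 4 libraries with high MERVL. With the number as a block the counts were 14 for SAHA, 22 for A485, 30 for TSA, 16 for TSA against SAHA, 26 for TSA against A485, 19 for siP300, 20 for siComb and 0 for siKat6a and siKat6b. At 3 libraries a group, differences in lowly counted members such as Cdkn1b, Cdc25b and Cdk6 rest on few counts.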
